A study of Ovis aries with 12 samples.

Results

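The genes described here encode cadherins, the catenins that bind them, and companions of other cell junctions: CDH1, CDH2, CDH11, CTNNB1, CTNNA1, CTNND1, JUP, GJA1, TJP1 and EPCAM. They were chosen by name around the high CDH1 values of day 14 non-pregnant glands in these same arrays. Comparisons that use that group are therefore given for them as description, with no p-value. Any count past a threshold in those comparisons follows from the choice and supports nothing. Of the 10 genes, 9 were represented among the 9155 gene symbols of the array, by 13 probe sets out of 24016. CDH1, CDH11, GJA1 and TJP1 had 2 probe sets each, here called the brightest and the dimmer one, and no probe set carried the symbol CTNND1, which encodes p120 catenin.

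Gene expression was measured in the corpus luteum, the progesterone-producing gland that forms from the ovulated follicle, of 12 sheep on Affymetrix bovine arrays, with 1 array per gland and 3 per group. The groups were day 12 non-pregnant, day 12 pregnant, day 14 non-pregnant and day 14 pregnant ewes. Pregnant ewes had been bred to a fertile ram. Non-pregnant ewes had not been bred, and a vasectomized ram was used to check their heat. The labels name no drug treatment or genetic change, and breed and age are not given in the sources used here. Without pregnancy the gland regresses at the end of the cycle. The sample titles name day 12 pregnant throughout, at odds with the source label of 9 arrays, and the groups follow the source label.

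Cadherins are calcium-dependent membrane proteins that bind like molecules on a neighbouring cell. Their cytoplasmic tails bind beta-catenin or plakoglobin, which recruit alpha-catenin and through it the actin cytoskeleton, while beta-catenin also enters the nucleus as a partner of TCF/LEF transcription factors. Luteal cells derive from follicular granulosa and theca cells, and granulosa cells are joined by N-cadherin junctions and connexin 43 gap junctions.

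Values are log2 expression values, and a log2 difference of 1 is a doubling. Sheep RNA was hybridised to bovine probes, so levels of different probe sets were not compared as amounts of transcript. The array name in the labels split the arrays into batch A, with 4 arrays, and batch B, with 8, and it was kept as a term in the fit. In the values listed below in replicate order, day 14 non-pregnant replicates 2 and 3 and replicate 3 of each pregnant group belonged to batch A. Array medians lay between 5.16 and 5.24. The leading principal component (29.6% of the variance) gave the day 14 non-pregnant arrays scores of 18.1, 33.7 and 40.4, and the other 9 had scores below 0. STAR, the cholesterol carrier that starts steroid synthesis, had a mean level of 12.89, brighter than 99.8% of probe sets.

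CDH1 encodes E-cadherin, the classical cadherin of epithelia. Its brightest probe set read 4.10, 3.77 and 4.07 in day 12 non-pregnant glands, 4.06, 4.10 and 4.04 in day 12 pregnant glands, and 4.01, 3.79 and 4.36 in day 14 pregnant glands. In day 14 non-pregnant glands it read 5.39, 6.19 and 6.47. All 3 of these arrays lay above the other 9, which ranged from 3.77 to 4.36. The day 14 non-pregnant mean was 6.02 ± 0.561 (SD, n = 3). The other group means were 4.07 ± 0.029 for day 12 pregnant, 4.05 ± 0.286 for day 14 pregnant and 3.98 ± 0.182 for day 12 non-pregnant glands, and these 3 groups overlapped.

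On day 14 the CDH1 value was 3.5-fold higher in non-pregnant than in pregnant glands. The log2 difference, pregnant minus non-pregnant, was -1.81 ± 0.185 (SE from the fit), with a 95% interval from -2.21 to -1.4. Batch A alone gave -1.97 and batch B alone -1.49. Non-pregnant glands of day 14 exceeded those of day 12 by 1.73 ± 0.205, or 3.32-fold, and by 1.41 within batch B, the only batch with both groups. These values are the ones the genes were selected on. The first of the 3 day 14 non-pregnant arrays, the one of batch B, was the lowest of them. Without both batch A arrays of that group, a setting added after the data were seen, the day 14 difference was -1.40.

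The dimmer CDH1 probe set did not show this pattern. It lay between 2.90 and 3.33 on all 12 arrays, and only 18.2% of probe sets were dimmer. Its day 14 difference was -0.09 ± 0.1 and its day 14 minus day 12 difference in non-pregnant glands was -0.02 ± 0.111. The CDH1 result therefore rests on 1 of 2 probe sets, and even that one was modest in level, with 39.1% of probe sets dimmer.

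CDH2 encodes N-cadherin, the classical cadherin of granulosa cells. Its single probe set read 7.09, 6.75 and 7.72 in day 12 non-pregnant, 6.66, 6.67 and 7.05 in day 12 pregnant, 8.22, 9.07 and 8.67 in day 14 non-pregnant, and 6.95, 7.00 and 7.14 in day 14 pregnant glands. Here too the 3 day 14 non-pregnant arrays were the highest of the 12. The day 14 difference, pregnant minus non-pregnant, was -1.49 ± 0.216, a 2.8-fold higher value without pregnancy, with -1.72 in batch A and -1.24 in batch B. From day 12 to day 14 the non-pregnant value was higher by 1.20 ± 0.24, or 2.3-fold. The rest of the CDH2 values were less even than those of CDH1, since the third day 12 non-pregnant array stood at 7.72 while the remaining arrays outside the day 14 non-pregnant group reached 7.14 at most.

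CDH11 encodes cadherin-11, a type II cadherin of mesenchymal cells, and its day 14 non-pregnant values were low, not high. The brightest probe set read 10.77, 10.81 and 11.04 in day 12 non-pregnant, 10.88, 10.24 and 10.79 in day 12 pregnant, 10.19, 9.93 and 10.52 in day 14 non-pregnant, and 10.49, 10.47 and 10.96 in day 14 pregnant glands. Day 14 non-pregnant glands all lay below day 12 non-pregnant ones, by 0.82 log2 units (difference -0.82 ± 0.213), but they overlapped day 14 pregnant glands, with a difference of 0.51 ± 0.192 for pregnant minus non-pregnant. The dimmer CDH11 probe set had the same directions, with -0.95 ± 0.173 between the non-pregnant days and 0.44 ± 0.156 between the day 14 groups. Day 14 non-pregnant glands had the lowest mean by both CDH11 probe sets but overlapped both pregnant groups. By the dimmer probe set it was the day 12 non-pregnant group that stood apart, at 9.01 ± 0.143 (SD, n = 3) against a next mean of 8.59.

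**Figure D1:**
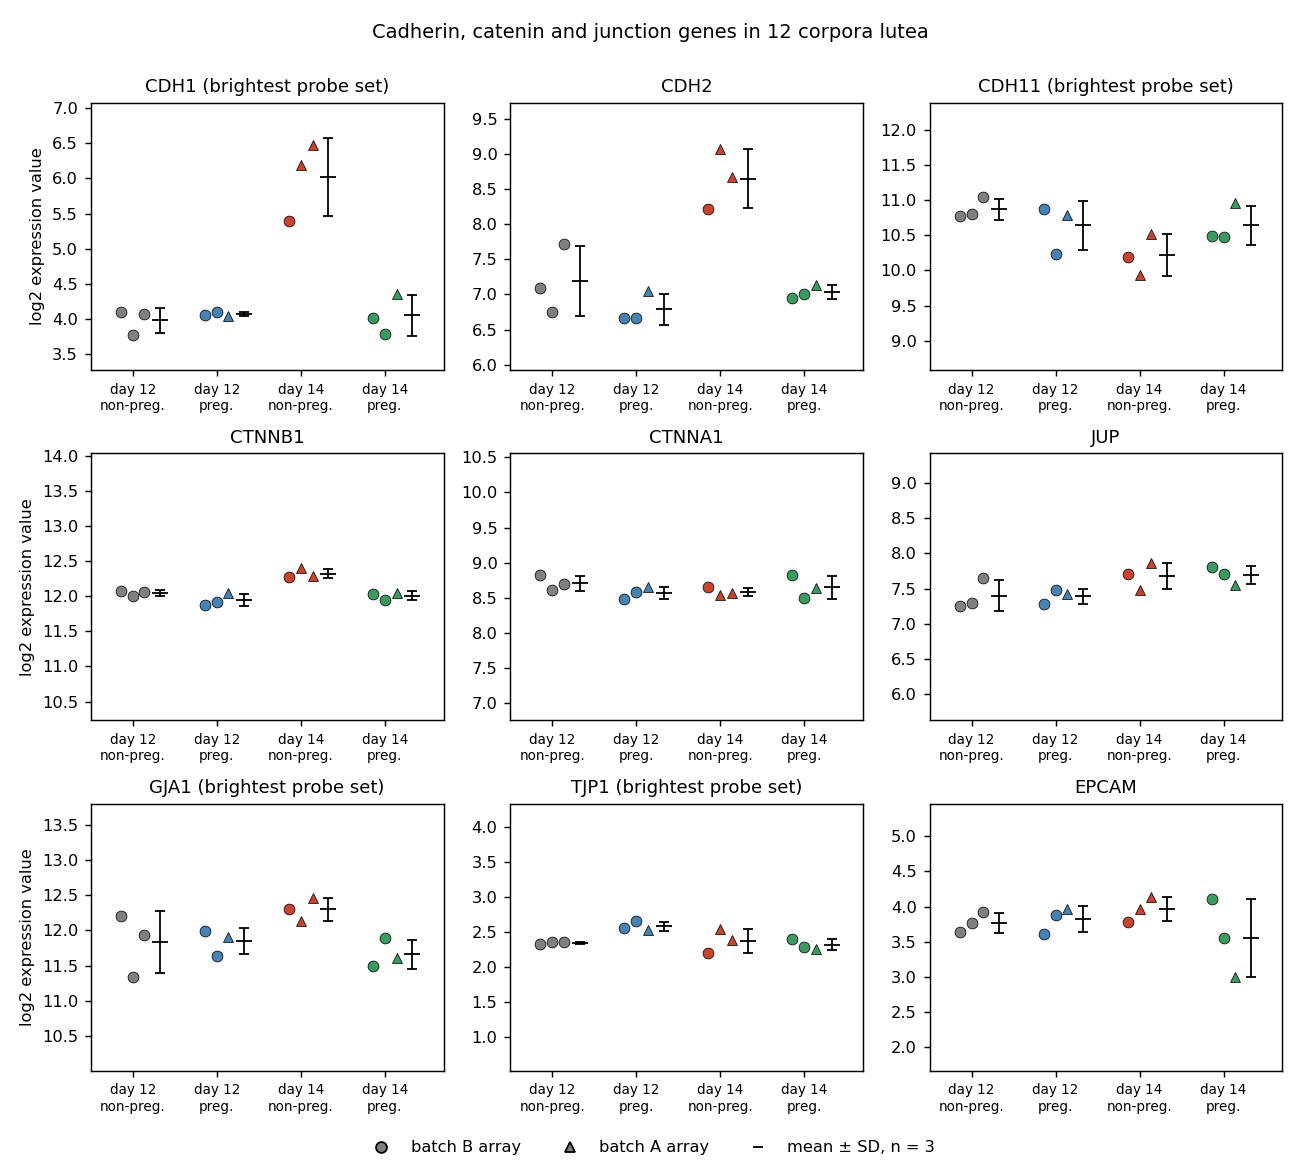
Log2 expression value (vertical axis, of equal span in every panel) of the 9 measured genes on each of the 12 arrays, by group; circles are batch B arrays, triangles batch A arrays, and the bars give mean ± SD (n = 3). The 3 day 14 non-pregnant arrays stand above the other 9 for CDH1, CDH2 and CTNNB1, and they lie low for CDH11, where they overlap both pregnant groups.

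Among the catenins, CTNNB1, which encodes beta-catenin, had narrow spreads. It read 12.08, 12.00 and 12.06 in day 12 non-pregnant, 11.88, 11.92 and 12.05 in day 12 pregnant, 12.28, 12.40 and 12.29 in day 14 non-pregnant, and 12.03, 11.94 and 12.05 in day 14 pregnant glands. The 3 day 14 non-pregnant arrays were again the highest, though the step was small. The day 14 difference was -0.29 ± 0.0834, a 1.22-fold higher value without pregnancy, with -0.29 in batch A and -0.3 in batch B.

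CTNNA1, which encodes the alpha-catenin that links the complex to actin, lay between 8.48 and 8.83 on all 12 arrays. Its day 14 difference was 0.07 ± 0.11 and its non-pregnant day difference was -0.13 ± 0.122, and the groups overlapped in both cases. JUP encodes plakoglobin, a relative of beta-catenin shared by adherens junctions and desmosomes. It read 7.25, 7.29 and 7.65 in day 12 non-pregnant, 7.28, 7.48 and 7.42 in day 12 pregnant, 7.70, 7.48 and 7.86 in day 14 non-pregnant, and 7.81, 7.71 and 7.55 in day 14 pregnant glands. Both day 14 groups thus had similar JUP values, with a difference of -0.01 ± 0.14.

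GJA1 encodes connexin 43, a gap junction channel subunit. Its brightest probe set read 12.21, 11.34 and 11.93 in day 12 non-pregnant, 11.99, 11.64 and 11.91 in day 12 pregnant, 12.31, 12.14 and 12.46 in day 14 non-pregnant, and 11.49, 11.89 and 11.61 in day 14 pregnant glands. The day 14 groups did not overlap, and the difference was -0.64 ± 0.208, or 1.56-fold higher without pregnancy, with -0.69 in batch A and -0.62 in batch B. The first day 12 non-pregnant array was as bright as the day 14 ones, and the non-pregnant day difference was 0.48 ± 0.231. The dimmer GJA1 probe set, at 2.86 to 3.36, gave 0.25 ± 0.0991 on day 14, in the opposite direction.

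The remaining genes gave little signal. TJP1 encodes ZO-1, the scaffold of tight junctions, and both of its probe sets lay between 2.01 and 2.65, with only 5.9% and 2.1% of probe sets dimmer. A level that low cannot be distinguished from absent signal. EPCAM, an adhesion molecule of epithelia, lay between 2.99 and 4.13. Its day 14 difference of -0.45 ± 0.232 rested on the third day 14 pregnant array, at 2.99, without which it was 0.03, and the difference was -1.05 in batch A against 0.04 in batch B.

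Over the 13 probe sets, 3 had all day 14 non-pregnant arrays above the other 9, those of CDH1 (brightest), CDH2 and CTNNB1. Across the array 2.91% of probe sets did. None of the 13 had all 3 below the other 9, against 3.62% across the array. The median difference of the 13 was -0.09 on day 14 and 0.01 between the non-pregnant days, beside 0.029 and -0.026 for all probe sets. The fit placed 2 of the 13 past an adjusted p of 0.05 on day 14, both lower in pregnancy (CDH1 brightest and CDH2), and 0 higher, where 0.912% of all probe sets were lower and 0.537% higher. Between the non-pregnant days it placed 1 higher (CDH1 brightest) and 1 lower (CDH11 dimmer), where 0.291% and 0.0999% of all probe sets were. For the interaction, the change of the pregnancy difference between the days, it placed 1 (CDH1 brightest, -1.74 ± 0.271), where 0.0874% of all probe sets were. The members were chosen on the day 14 non-pregnant values that enter each of these counts, so the counts describe the choice and nothing is read from them.

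**Figure D2:**
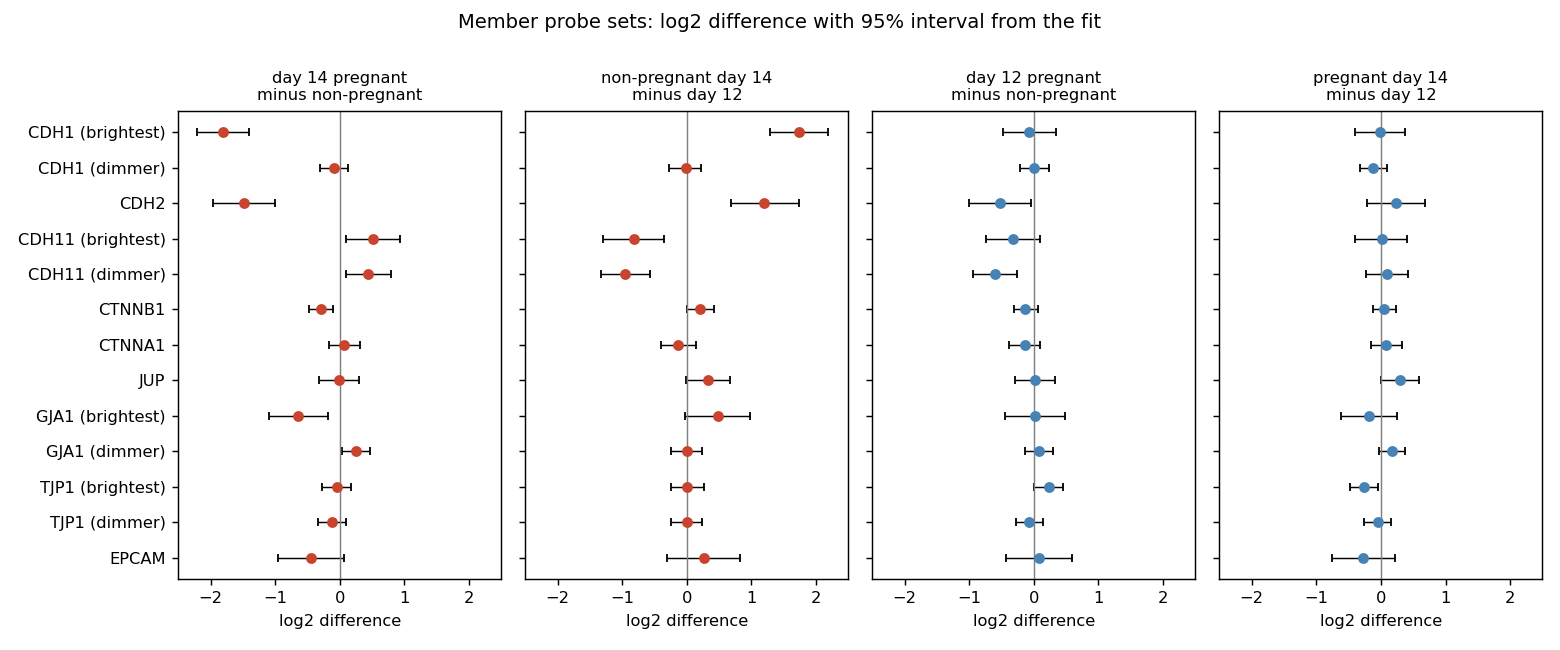
Log2 difference (horizontal axis) of the 13 probe sets in 4 comparisons; points are estimates of the fit and bars their 95% intervals. In the left pair of panels (red), which use the group the genes were chosen on, CDH1 and CDH2 lie farthest from 0 and CDH11 has the opposite sign; in the right pair (blue) all points lie within 0.6 of 0.

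The 2 remaining comparisons set no value of the day 14 non-pregnant group against another, although its arrays enter the batch term and the pooled spread of the fit. On day 12, pregnant against non-pregnant, 0 of 13 probe sets passed the adjusted threshold, beside 0% of all probe sets. At an unadjusted p below 0.05 there were 2 of 13, beside 7.69% across the array. These were CDH11 (dimmer), lower in pregnancy, and CDH2. CDH11 (dimmer) read 8.94, 8.93 and 9.18 in non-pregnant and 8.66, 8.16 and 8.68 in pregnant glands, and the groups did not overlap. Its difference of -0.60 ± 0.156 had an adjusted p of 0.41 in limma's test, and the brightest CDH11 probe set gave -0.32 ± 0.192 with an adjusted p of 0.742. For CDH2 the day 12 difference was -0.52 ± 0.216, with an interval from -1.0 to -0.05 and a limma adjusted p of 0.611. CDH1 (brightest) differed by -0.07 ± 0.185, with an interval from -0.47 to 0.34 and a limma adjusted p of 0.963. The sign of this CDH1 value depended on the batch term: it was 0.09 as a plain difference of means, 0.10 within batch B, and 0.01 in the fit in which the day 14 non-pregnant group kept its batch B array only. For CDH2 and CDH11 (dimmer) the values within batch B were -0.52 and -0.60.

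Between days 12 and 14 of pregnancy, 0 of 13 passed the adjusted threshold, again with 0% of all probe sets, and 1 of 13 had an unadjusted p below 0.05, beside 4.43% across the array. This was TJP1 (brightest), with -0.26 ± 0.0997 and a limma adjusted p of 0.992, at the floor of the array's signal. JUP was higher on day 14 on all 3 arrays, at 7.55 to 7.81 against 7.28 to 7.48, with 0.30 ± 0.135 and a limma adjusted p of 0.992. CDH1 (brightest) differed by -0.01 ± 0.178, with an interval from -0.4 to 0.38 and a limma adjusted p of 0.999, with 0.32 in batch A and -0.18 in batch B. CDH2 differed by 0.24 ± 0.208, with a limma adjusted p of 0.992. An adjusted p above the threshold does not show that levels were equal.

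The rest of the junction machinery was read from 9 lists, of other cadherins, adherens junction partners, desmosomes, gap and tight junctions, regulators of CDH1, cadherin shedding and the beta-catenin pathway. These lists, like the marker lists below, were chosen with earlier results of these data known. Their counts and p-values in comparisons with day 14 non-pregnant glands are therefore descriptive and no independent test. Of 213 listed genes 97 were measured, each by its brightest probe set. On day 14, 0 of the 97 were higher and 3 were lower in pregnant than in non-pregnant glands (3.09%, beside 1.94% of all genes). From day 12 to 14 without pregnancy 2 were higher and 0 lower (2.06%, beside 0.502% of all genes), and 0 passed in the 2 other comparisons. At an unadjusted p below 0.05 there were 18 of 97 on day 14, beside 18.2% of all genes, and 18 between the non-pregnant days, beside 13.3%. In the day 12 and within-pregnancy comparisons there were 4 and 4, beside 8.66% and 4.57% of all genes. The median difference of the 97 was 0.02 on day 14 and -0.02 between the non-pregnant days, so the median junction gene lay near 0.

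The 3 genes were VCL, CGN and TCF7, and each had its 3 day 14 non-pregnant values above the other 9. They were 1 of 12 measured adherens junction partners, 1 of 25 tight junction genes and 1 of 13 beta-catenin pathway genes. In these lists 5, 17 and 6 genes had a day 14 difference above 0 (higher in pregnancy) and 7, 8 and 7 below. The medians were -0.07, 0.09 and -0.03. An unadjusted p below 0.05 was found for 3, 5 and 4, beside 18.2% of all genes. VCL encodes vinculin, which ties alpha-catenin to actin. It read 10.98, 10.62 and 10.75 in day 14 non-pregnant glands and 9.82 to 10.16 in all others. The day 14 difference was -0.79 ± 0.111 (limma adjusted p = 0.00701), 1.73-fold higher without pregnancy. The non-pregnant day difference was 0.80 ± 0.124 (limma adjusted p = 0.0222), which passed in 7 of 12 leave-outs of 1 array; it was lost without the first day 14 non-pregnant (0.117), any day 12 non-pregnant or the third day 14 pregnant array. A second, very dim VCL probe set gave -0.27 ± 0.147 on day 14 (limma adjusted p = 0.411). Without the third day 14 pregnant array the adjusted p of VCL on day 14 was 0.0549.

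CGN encodes cingulin, a cytoplasmic protein of tight junctions. It read 7.43, 8.57 and 7.13 in day 14 non-pregnant glands and 5.48 to 6.40 in all others. The day 14 difference of -1.57 ± 0.322 had a limma adjusted p of 0.0389, and leaving out 1 array kept it past the threshold in 3 of 12 cases, those without day 14 non-pregnant replicate 2 or 3 or day 14 pregnant replicate 2. The highest adjusted p was 0.184, without the third day 14 pregnant array. TCF7 encodes TCF-1, a nuclear partner of beta-catenin that T cells also express. It read 7.22, 8.14 and 7.29 in day 14 non-pregnant glands and 4.26 to 5.67 in all others. The difference of -2.40 ± 0.333 (limma adjusted p = 0.00669) was a 5.28-fold higher value without pregnancy, and it passed in 12 of 12 leave-outs, with 0.0597 when both batch A arrays of its non-pregnant group were left out. The non-pregnant day difference of TCF7 was 2.10 ± 0.37 (limma adjusted p = 0.0396), which passed in 4 of 12, those without day 14 non-pregnant replicate 2 or 3 or day 14 pregnant replicate 1 or 3. A dimmer TCF7 probe set gave -1.20 ± 0.236 on day 14 (limma adjusted p = 0.0324).

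Of 7 measured connexins and partners other than GJA1, 0 passed on day 14 and 3 had an unadjusted p below 0.05, beside 18.2% of all genes. By their brightest probe sets the beta connexins GJB1 and GJB2 had all 3 day 14 non-pregnant values below the other 9, at 4.57 to 4.63 and 3.90 to 3.97. Their day 14 differences were 0.31 ± 0.0981 and 0.38 ± 0.128, with limma adjusted p of 0.148 and 0.173. Their other probe sets gave 0.29 ± 0.108 and 0.01 ± 0.15 for GJB1 and 0.26 ± 0.128 and -0.24 ± 0.112 for GJB2. The last of these was highest in day 14 non-pregnant glands (mean 3.84), so the GJB2 probe sets disagreed in direction. Among 6 measured other classical or type II cadherins 0 passed and 0 had an unadjusted p below 0.05 on day 14, and CDH3 (P-cadherin) gave 0.28 ± 0.157 on day 14 (limma adjusted p = 0.432). CDH17 gave 0.21 ± 0.126 on day 14 (limma adjusted p = 0.458) and -0.33 ± 0.14 between the non-pregnant days (limma adjusted p = 0.395). The 9 protocadherins and distant relatives likewise gave 0 and 0 on day 14, with CDHR1 at 0.22 ± 0.139 and PCDH10 at -0.25 ± 0.139 (limma adjusted p of 0.483 and 0.415). The 8 desmosome genes gave 0 and 0 on day 14, and DSC2 and PERP, both very dim, had day 14 differences of 0.13 ± 0.1 and -0.25 ± 0.124. Between the non-pregnant days these 2 gave -0.26 ± 0.111 and 0.00 ± 0.137 (limma adjusted p of 0.398 and 0.994).

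Of 10 measured regulators of CDH1 transcription 0 passed by the brightest probe set, and 2 had an unadjusted p below 0.05 on day 14, beside 18.2% of all genes. TCF3, a repressor of CDH1, gave -0.29 ± 0.124 on day 14 (limma adjusted p = 0.283), and its dimmer probe set gave -0.47 ± 0.0952 (limma adjusted p = 0.0372). ELF3, an epithelial transcription factor, gave 0.29 ± 0.126 (limma adjusted p = 0.296). SNAI1 and ZEB1, further repressors of CDH1 that were named after their values were seen, gave -0.48 ± 0.413 and 0.01 ± 0.131 (limma adjusted p of 0.626 and 0.981). Of 7 measured genes of cadherin shedding and turnover 0 passed on day 14 by the brightest probe set. An unadjusted p below 0.05 was found for 1, beside 18.2% of all genes. ADAM10, the protease that sheds cadherin ectodomains, gave -0.36 ± 0.0924 by its brightest probe set (limma adjusted p = 0.0885) and -0.46 ± 0.0947 and -0.63 ± 0.13 by 2 others (limma adjusted p of 0.0403 and 0.0395). NUMB, an endocytic adaptor, gave 0.00 ± 0.104 on day 14 (limma adjusted p = 0.999) and 0.28 ± 0.116 between the non-pregnant days (limma adjusted p = 0.373). In that second comparison 0 of the 7 passed and 3 had an unadjusted p below 0.05, beside 13.3% of all genes, with 5 above 0 and 2 below.

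**Figure D3:**
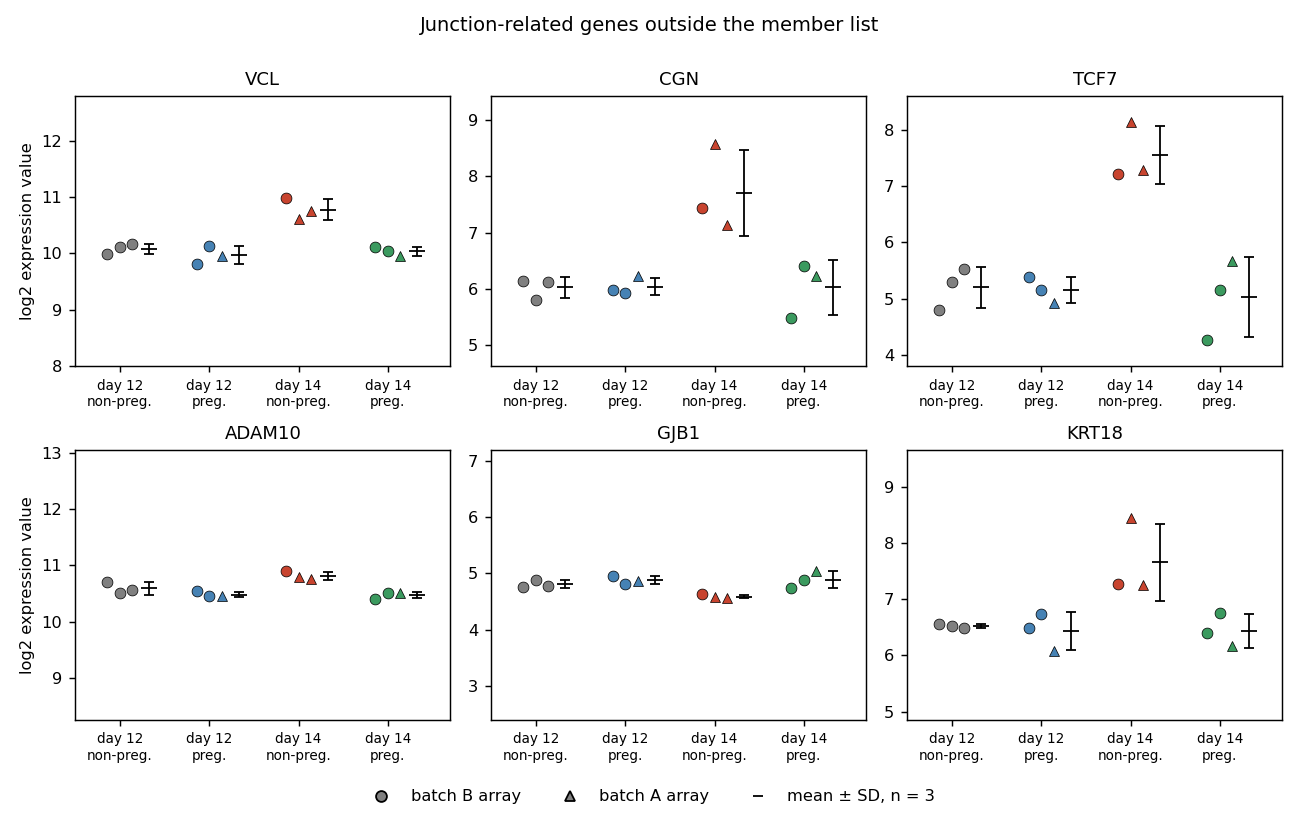
Log2 expression value (vertical axis, of equal span in every panel) by the brightest probe set of VCL, CGN, TCF7, ADAM10, GJB1 and KRT18 on each of the 12 arrays, by group; symbols and bars are as for the plot of the 9 genes. Day 14 non-pregnant arrays are highest for VCL, CGN, TCF7, ADAM10 and KRT18 and lowest for GJB1.

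The glands are mixed tissue, so fewer cells of a type and less RNA per cell cannot be told apart. Of 13 measured epithelial markers 0 passed on day 14 or between the non-pregnant days, where 4 and 3 had an unadjusted p below 0.05, beside 18.2% and 13.3% of all genes. On day 14, 8 of the 13 had a difference above 0 (higher in pregnancy) and 5 below, with a median of 0.06, and between the non-pregnant days 6 were above and 7 below, with a median of -0.06. Their mean level was 5.27 to 5.41 in day 14 non-pregnant glands and 5.21 to 5.37 in the others. KRT18, a keratin of simple epithelia, read 7.26, 8.44 and 7.25 in day 14 non-pregnant glands and 6.07 to 6.75 in the others, with a day 14 difference of -1.26 ± 0.297 (limma adjusted p = 0.0658, under the threshold in 2 of 12 leave-outs). SPINT2, a protease inhibitor of epithelia, gave -0.12 ± 0.0959 on day 14 (limma adjusted p = 0.604) and 0.32 ± 0.106 between the non-pregnant days (limma adjusted p = 0.254). The part of epithelial cells in the CDH1 values was not tested.

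Some genes of other marker lists moved with the same arrays. On day 14, 1.94% of all genes passed and 18.2% had an unadjusted p below 0.05. CNN1, a smooth muscle calponin, was 1 of 7 in its list to pass. It read 7.61 to 7.98 in day 14 non-pregnant and 5.94 to 6.48 in the other glands, a difference of -1.54 ± 0.148 (limma adjusted p = 0.000974). Of these 7 genes 3 had a day 14 difference above 0 and 4 below, with a median of -0.1. An unadjusted p below 0.05 was found for 3. Between the non-pregnant days 3 were above and 4 below, with a median of -0.1, while CNN1 gave 1.38 ± 0.164. Of 12 endothelial markers 8 had a day 14 difference above 0 (higher in pregnancy) and 4 below, with a median of 0.09. An unadjusted p below 0.05 was found for 4. The 2 that passed, CD34 and TIE1, were lower without pregnancy on day 14, by 1.09 ± 0.161 and 0.48 ± 0.0883 (limma adjusted p of 0.00828 and 0.0266). They were lower without pregnancy on day 12 too, by 0.48 ± 0.161 and 0.35 ± 0.0883 (limma adjusted p of 0.551 and 0.382). Their interactions were 0.61 ± 0.236 and 0.12 ± 0.13 (limma adjusted p of 0.433 and 0.825), so their difference was not particular to day 14. The day 14 adjusted p of CD34 and TIE1 without the third day 14 pregnant array was 0.0799 and 0.093, and TIE1 passed in 7 of 12 leave-outs. STAR was 1 of 9 steroidogenic genes to pass, with 0.74 ± 0.133 (limma adjusted p = 0.0245, and 0.146 without that array). It passed in 8 of 12 leave-outs. Of the 9 genes 8 had a day 14 difference above 0 and 1 below, with a median of 0.43. An unadjusted p below 0.05 was found for 5. The list's mean level was 9.99 to 10.44 in day 14 non-pregnant and 10.50 to 10.67 in the other glands.

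No macrophage, T cell or fibroblast marker passed (0 of 5, 0 of 6 and 0 of 9). At an unadjusted p below 0.05 there were 4, 0 and 0 on day 14, beside 18.2% of all genes, and 0, 0 and 4 between the non-pregnant days, beside 13.3%. In these lists 1, 5 and 7 genes had a day 14 difference above 0 (higher in pregnancy) and 4, 1 and 2 below. The medians were -0.44, 0.14 and 0.18, so most macrophage markers were higher without pregnancy on day 14. Of the 9 fibroblast genes 8 had lower values on day 14 than on day 12 without pregnancy, with a median difference of -0.32, in the comparison in which both CDH11 probe sets also had lower values. The macrophage marker CD68 read 6.47, 7.73 and 7.60 in day 14 non-pregnant glands and 6.18 to 6.75 in the others, so both batch A arrays were high and the batch B array was not. MSR1, another macrophage marker, read 5.23, 6.41 and 6.39 by its brightest probe set and 5.06 to 5.49 in the others. Its day 14 difference was -0.50 ± 0.215 (limma adjusted p = 0.288), while its other probe sets gave -0.01 ± 0.181 and -0.20 ± 0.201. CDH1, CDH2, VCL and TCF7 were outside the range of the other 9 arrays on the day 14 non-pregnant array of batch B as well. A single array cannot show what part macrophages had in these values, and that part was not tested. COL1A1, the fibroblast gene that came nearest to the threshold, gave -0.92 ± 0.202 between the non-pregnant days (limma adjusted p = 0.0914), and COL1A2 gave -0.44 ± 0.126 (limma adjusted p = 0.189). Between days 12 and 14 of pregnancy the T cell markers CD3G and CD8A gave 0.74 ± 0.158 and 0.26 ± 0.112 (limma adjusted p of 0.84 and 0.992). In that comparison 5 of the 6 T cell genes were above 0 and 1 below. The mean 3′ minus 5′ signal of the actin and GAPDH control probe sets, a measure of RNA integrity, was 1.29 to 1.43 in day 14 non-pregnant and 1.42 to 1.60 in the other glands. The part of these differences in the cadherin values was not tested.

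**Figure D4:**
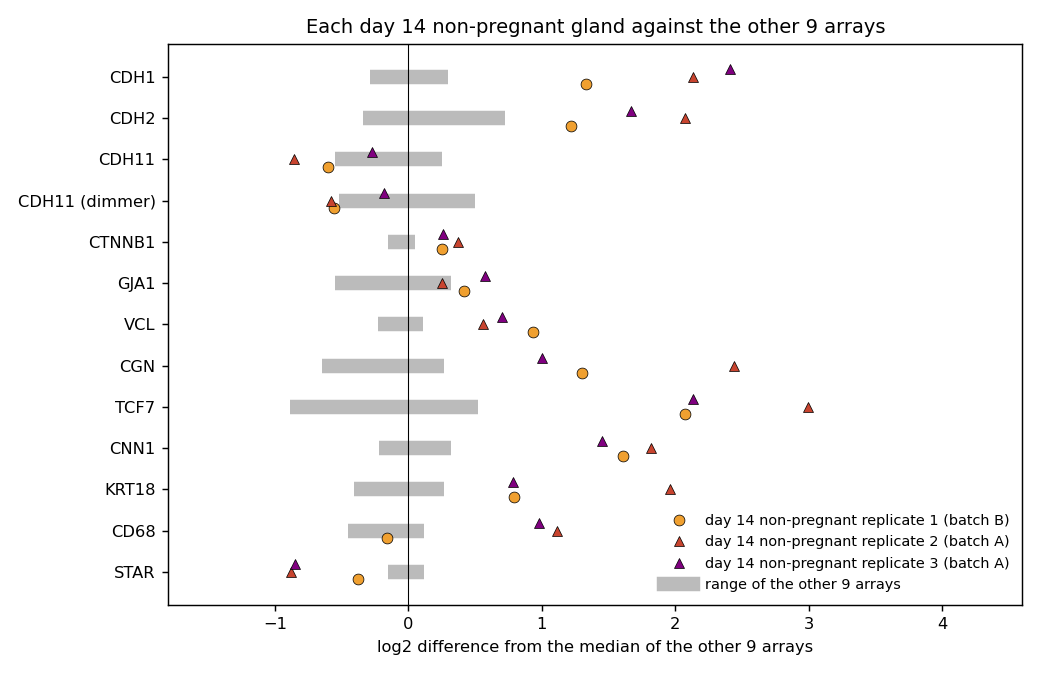
Log2 difference (horizontal axis) of each day 14 non-pregnant array from the median of the other 9 arrays for 13 probe sets; grey bars give the range of those 9, and the orange circle is the batch B array. For CDH1 the shifts were 1.33, 2.13 and 2.41, for CDH2 1.22, 2.07 and 1.67, and for CD68 -0.16, 1.11 and 0.98.

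The 5 genes whose pattern over the 12 arrays was closest to that of CDH1 were INSR, ZCCHC12, MAPKAPK3, THBS1 and HMGA1. Likeness was the root mean square distance between deviations from each probe set's own mean. It was 0.201, 0.234, 0.267, 0.271 and 0.275 log2 units for these genes, beside a median of 0.925 over all probe sets with a single symbol. A probe set with the same value on all 12 arrays would lie at 0.899, so the median was close to that of a flat probe set. INSR, the insulin receptor, was close through 1 of 5 probe sets, at 2.58 to 2.96 outside and 4.39, 4.57 and 5.28 inside the day 14 non-pregnant group. Only 20.1% of probe sets were dimmer than this one, and its values outside the group were near the floor of the signal. THBS1, the matrix protein thrombospondin 1, was close through 1 of 6, at 9.22 to 10.35 outside and 11.54, 11.98 and 12.18 inside it. ZCCHC12 had 5.15 to 5.53 outside and 6.31, 7.13 and 7.54 inside the group. For MAPKAPK3, a kinase downstream of p38, the values were 8.36 to 8.81 outside and 9.68, 10.68 and 10.31 inside it. HMGA1, a chromatin protein, had 5.49 to 5.93 outside and 6.45, 7.95 and 7.67 inside it. No member of the cadherin and junction set was among those compared.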

How the data were processed

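The deposited series matrix holds log2 values for 24128 probe sets on 12 arrays, which the authors computed by RMA using the Affymetrix Expression Console software, as the submitters' processing notes list. Its version is not given in the sources used here. The method corrects background, equalises the arrays by quantiles and summarises the probes of each probe set as 1 value. No detection calls result, so dim and absent signals look alike. The 112 control probe sets were left out, and 24016 were tested. Symbols came from the platform annotation, of which 13292 probe sets had 1, 86 several and 10638 none; those with several were not used for names. Bovine symbols were kept and can be old.

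Groups came from the source label. The titles call every array day 12 pregnant, which conflicts with that label for most arrays, and were not used. The labels name separate ewes, so p-values measure the spread between ewes; replicate numbers are accession order and pair nothing. The description label gave the batches; whether its array names mean different designs was not settled.

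Using limma 3.58.1 (R 4.3.3), group means plus an additive batch term were estimated over the 12 arrays together (7 residual and 4.391 prior degrees of freedom), two-sided, with Benjamini-Hochberg adjustment over all probe sets and a threshold of 0.05. It was tested on simulated data. The number of arrays limits precision.

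The members and the lists were chosen with earlier results of these data known. Named genes are all members, up to 4 genes per list past the threshold with the smallest p, otherwise the 2 with the smallest p, and the 5 nearest to CDH1; SNAI1 and ZEB1 were added. Alternatives were the fit without batch, batch as a random block, only the groups compared, no dim probe sets, median centring, mean of a gene's probe sets, and each array left out.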

Additional observations from a re-analysis of the deposited data

Results flagged for a closer look

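CNN1, a smooth muscle calponin read as a marker beside the cadherins, stood out because its pregnancy difference changed between the days: the difference on day 14 minus that on day 12 was -1.43 ± 0.217 (limma adjusted p = 0.0456). Its values were 7.78, 7.98 and 7.61 in day 14 non-pregnant glands and 5.94 to 6.48 in the other 9. Leaving out 1 array kept the interaction past the threshold in 2 of 12 cases, with adjusted p up to 0.161, and it was 0.0509 without dim probe sets.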

How the results depend on the processing

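Of 210 single values recomputed 3698 times, 3599 kept their side of the threshold or moved by less than 1 SD, 59 lost and 17 gained the threshold, 23 moved further, and 0 called values changed sign. Values that were not called changed sign 207 times. Counts of member probe sets past the threshold were 2 on day 14 (CDH1 and CDH2), 2 between the non-pregnant days and 1 for the interaction. Over leave-outs of 1 array the counts ranged from 1 to 2, from 1 to 2 and from 0 to 1. These comparisons use the group the members were chosen on, so nothing about stability is read from the counts. CDH2 on day 14 was lost and the count was 1 without the third day 14 pregnant array. When the day 14 non-pregnant group kept its batch B array only, they were 1 and 1. With only the groups compared, the count between the non-pregnant days was 0, and without dim probe sets the interaction count was 0.

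For the other junction genes, 3 on day 14 and 2 between the non-pregnant days, the leave-outs gave 1 to 4 and 0 to 3. With only the groups compared both were 0, with that batch B array only both were 1 (VCL), and with each gene as the mean of its probe sets they were 5 and 0. The causes were not tested, except that fewer arrays entered some fits. Over all probe sets, 348 passed on day 14, against 531 without the batch term and 24 with only the groups compared; between the non-pregnant days 94 passed, against 415 and 1. No paired analysis was possible because replicate numbers follow accession order.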
